A study of Mus musculus with 9 samples.

Results

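The α2,6-sialyltransferases are the Golgi enzymes that attach sialic acid through its α2,6 linkage. The 5 genes described are St6gal1, St6galnac2, St6galnac3, St6galnac4 and St6galnac6, chosen by name from the 56860 genes of a count table. They were followed across CD8 T cells sorted from mouse melanomas on surface α2,6-sialoglycans and on PD-1, an inhibitory receptor whose gene is Pdcd1. The groups were SiaLo_PD1pos (low in sialoglycan, positive for PD-1), SiaHi_PD1pos (high in sialoglycan, positive for PD-1) and SiaHi_PD1neg (high in sialoglycan, negative for PD-1), with 3 libraries of polyadenylated RNA each. All mice were wild type and untreated, so the groups differ in the sort gates and not in genotype or treatment. The labels name the tumour B16-OVA, in which B16 melanoma cells carry the model antigen ovalbumin, and the series description names B16F10, another line of the same melanoma. There was no group of sialoglycan-low, PD-1-negative cells, so the sialoglycan gates can be compared only among PD-1-positive cells and the PD-1 gates only among sialoglycan-high cells. The sources used here give neither the age or number of the mice behind a library nor the reagent that read the sialoglycans.

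Sialic acid is built in the cytosol and nucleus, activated as CMP-sialic acid and carried into the Golgi, where sialyltransferases place it at the ends of glycan chains. St6gal1 caps the galactose of N-acetyllactosamine, mostly on N-glycans, with α2,6-sialic acid, which Cd22 on B cells recognises and which can shield galactose from galectins. St6galnac2 adds α2,6-sialic acid to the inner GalNAc of O-glycans. St6galnac3 and St6galnac4 add it to the GalNAc of structures that already carry an α2,3-sialic acid, which on O-glycans gives the disialyl-T structure, and St6galnac6 acts mainly on gangliosides, the sialylated glycolipids. The sort reads the product of such enzymes on the cell surface, so the transcript levels and the gates are not unrelated measurements.

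In the coordinates of the deposited table, whose genome build is not known, St6gal1 lay on the plus strand of chromosome 16 at 23043490 to 23179100. St6galnac2 lay on the minus strand of chromosome 11 at 116566129 to 116585694, and St6galnac3 on the minus strand of chromosome 3 at 152903903 to 153430811. St6galnac4, at 32477107 to 32489710, and St6galnac6, at 32489721 to 32510818, lay on the plus strand of chromosome 2. These neighbours were separated by 10 bases with 0 genes between them, so a read from one could be assigned to the other. Exons of St6galnac2 overlapped those of Snhg16 on the opposite strand, and exons of St6gal1 overlapped those of BC106179, whose count did not exceed 41 in any library. The sources used here do not say whether counting used strand, so reads of such pairs cannot be told apart.

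RefSeq promoter windows on GRCm38.p6, which reach 250 bases before to 50 bases after a start site, matched 4 of the 5 genes, and St6galnac2 had no entry. St6gal1, the 1 gene of the 5 that was called between the sialoglycan gates, had 3 listed start sites, of which the later ones lay 1281 and 65730 bases after the first. These windows and those of the neighbours St6galnac4 and St6galnac6 follow, because the pair sits side by side and yet had different levels. They run 5′ to 3′ on the gene's strand, with CpG dinucleotides in capitals. In the order printed they are chr16:23224490-23224789, chr16:23225771-23226070, chr16:23290220-23290519, chr2:32586828-32587127 and chr2:32599459-32599758, all on the plus strand.
St6gal1, first start: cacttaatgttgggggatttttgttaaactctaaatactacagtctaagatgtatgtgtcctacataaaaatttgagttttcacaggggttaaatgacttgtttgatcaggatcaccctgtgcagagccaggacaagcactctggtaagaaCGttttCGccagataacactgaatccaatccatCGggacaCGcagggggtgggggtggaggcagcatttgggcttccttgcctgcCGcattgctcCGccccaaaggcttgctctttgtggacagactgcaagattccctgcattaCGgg
St6gal1, second start: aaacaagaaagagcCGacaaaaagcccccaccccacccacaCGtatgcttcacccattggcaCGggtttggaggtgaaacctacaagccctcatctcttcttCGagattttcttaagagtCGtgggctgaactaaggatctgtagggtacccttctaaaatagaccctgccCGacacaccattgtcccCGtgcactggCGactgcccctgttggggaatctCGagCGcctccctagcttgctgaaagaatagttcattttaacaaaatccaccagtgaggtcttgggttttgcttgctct
St6gal1, last start: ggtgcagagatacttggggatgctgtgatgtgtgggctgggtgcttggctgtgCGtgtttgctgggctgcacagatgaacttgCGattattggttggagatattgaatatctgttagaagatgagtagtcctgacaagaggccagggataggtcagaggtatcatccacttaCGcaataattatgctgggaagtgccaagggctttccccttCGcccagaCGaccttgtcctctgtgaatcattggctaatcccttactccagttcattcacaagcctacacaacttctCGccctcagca
St6galnac4: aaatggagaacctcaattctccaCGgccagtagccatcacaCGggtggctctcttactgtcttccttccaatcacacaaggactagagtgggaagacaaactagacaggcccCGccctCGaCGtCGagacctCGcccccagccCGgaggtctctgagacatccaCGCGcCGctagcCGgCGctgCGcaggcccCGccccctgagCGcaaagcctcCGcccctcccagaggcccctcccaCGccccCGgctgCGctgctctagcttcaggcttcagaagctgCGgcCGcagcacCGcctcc
St6galnac6: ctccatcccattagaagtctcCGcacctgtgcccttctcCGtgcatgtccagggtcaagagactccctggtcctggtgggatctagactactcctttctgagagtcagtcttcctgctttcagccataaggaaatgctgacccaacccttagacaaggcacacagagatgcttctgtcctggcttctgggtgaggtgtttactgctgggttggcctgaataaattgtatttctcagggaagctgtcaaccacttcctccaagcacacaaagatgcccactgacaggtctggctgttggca

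The 3 St6gal1 windows held 7, 10 and 6 CpG, with 48%, 50.7% and 49.7% of their bases G or C, near the median of 7 CpG over 32851 such windows of 27025 mouse gene symbols. St6galnac4 held 23 CpG, more than 78.5% of all windows, and St6galnac6 held 2 CpG, more than 14.1% of them. The St6galnac3 window, chr3:153725084-153725383 on the minus strand, held 20 CpG, more than 73.5% of all windows. Of 6 motifs searched on both strands, the GC box (GGGCGG, which itself contains a CpG) matched at 3 places in St6galnac4, 1 in St6galnac3 and 1 in the first St6gal1 window, and 35.7% of all windows held it. The E box CAGGTG, found in 20.2% of all windows, matched at 1 place in St6galnac6. The TATA box TATAAA (13.6% of all windows), the TCF/LEF motif ATCAAAG (3.73%), the ETS core CCGGAA (14.9%) and the CRE core TGACGT (7.51%) had no match in the 6 windows. The last 2 also contain a CpG. The counts are per gene, so which St6gal1 start site the T cells used is not resolved.

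The libraries held 9714020 to 15030442 counts in genes, and a gene's level is its share of them in CPM, with library sizes adjusted by the trimmed mean of M-values (TMM). Pdcd1 had 1097.3 to 1162.6 CPM in SiaLo_PD1pos, 864.1 to 939.3 CPM in SiaHi_PD1pos and 36.1 to 77.5 CPM in SiaHi_PD1neg. Cd8a had 1546.6 to 1754.7 CPM in SiaLo_PD1pos, 1350.5 to 1489.1 CPM in SiaHi_PD1pos and 414.0 to 491.3 CPM in SiaHi_PD1neg. The summed level of 10 T cell genes (Cd8a, Cd8b1, Lck, Cd247, Trbc1, Trbc2, Trac, Cd3d, Cd3e and Cd3g) was 6370 to 7166 CPM in SiaLo_PD1pos, 5645 to 7316 CPM in SiaHi_PD1pos and 1610 to 1753 CPM in SiaHi_PD1neg. The 13 markers of conventional dendritic cells and MHC class II summed to 1720 to 2117 CPM in SiaLo_PD1pos, 2971 to 5357 CPM in SiaHi_PD1pos and 16889 to 19346 CPM in SiaHi_PD1neg. The libraries labelled SiaHi_PD1neg thus held a smaller share of T cell RNA and a larger share of RNA of antigen-presenting cells than the others. For the 5 genes, each comparison with them is therefore also given per T cell transcript. In bulk RNA, fewer cells that express a gene and less RNA per cell cannot be told apart. Nothing in the labels says that the 3 libraries of a group came from separate animals, so p-values measure only how these libraries vary, and that variation may be technical.

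Of the 5 genes, St6gal1 alone passed the test between SiaLo_PD1pos and SiaHi_PD1pos, where it was lower in the sialoglycan-low cells. St6gal1 had 12.5, 7.08 and 17.5 CPM in the SiaLo_PD1pos libraries, 55.8, 63.5 and 72.2 CPM in the SiaHi_PD1pos libraries, and 103.4, 105.3 and 87.0 CPM in the SiaHi_PD1neg libraries. The groups did not overlap, and the highest SiaLo_PD1pos library lay below the lowest SiaHi_PD1pos library. The level averaged 12.3 ± 5.20 CPM in SiaLo_PD1pos, 63.8 ± 8.20 CPM in SiaHi_PD1pos and 98.6 ± 10.1 CPM in SiaHi_PD1neg (SD, n = 3 each). These levels rest on 98 to 202 counts per library in SiaLo_PD1pos, 745 to 917 in SiaHi_PD1pos and 886 to 1419 in SiaHi_PD1neg.

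**Figure D1:**
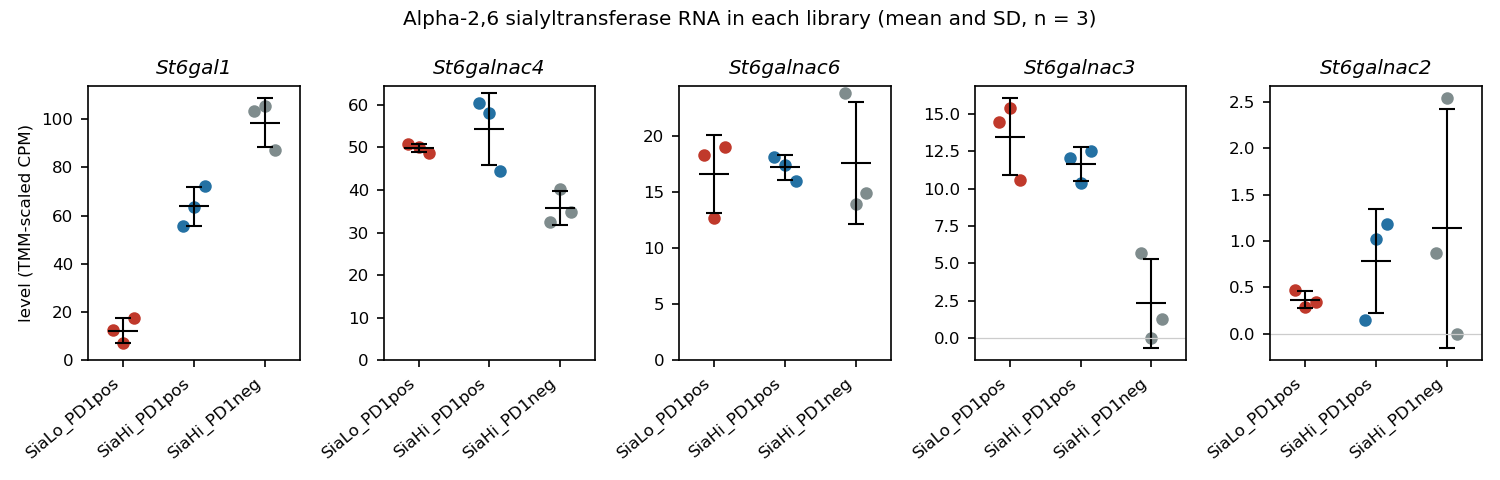
Level of each gene in TMM-scaled CPM (y axis, a separate linear scale per panel) in the 3 sorted groups (x axis). Points are libraries and black bars are the mean and SD of 3 libraries. The 3 SiaLo_PD1pos libraries of St6gal1 sit at 7.08 to 17.5 CPM, below the SiaHi_PD1pos libraries at 55.8 to 72.2 CPM.

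In SiaLo_PD1pos over SiaHi_PD1pos, St6gal1 fell by 2.38 on the log2 scale (SE 0.25), which is 5.19-fold, with an adjusted p of 2.54e-04 by edgeR's quasi-likelihood test with Benjamini-Hochberg adjustment over all 15292 tested genes. It ranked 20 by p among them. The background was 1.4% of tested genes called in either direction in this comparison, 0.268% called higher and 1.13% called lower, and 19.4% whose libraries did not overlap between the groups. St6gal1 was the 1 gene of the 5 in either count. The call held in 9 of 9 fits that each left out a library, with log2 fold changes between -2.69 and -2.09.

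The difference in St6gal1 between the PD-1 gates was smaller on this scale. In SiaHi_PD1pos over SiaHi_PD1neg, St6gal1 fell by 0.63 on the log2 scale (SE 0.24), which is 1.55-fold, with an edgeR adjusted p of 0.0483. In this comparison 40.2% of tested genes were called in either direction, 21% higher and 19.2% lower, and 47.5% did not overlap between the groups. The call was lost without SiaHi_PD1pos replicate 1, 2 or 3 (log2 fold changes of -0.52, -0.61 and -0.71), without SiaHi_PD1neg replicate 1, 2 or 3 (-0.57, -0.55 and -0.68) and without SiaLo_PD1pos replicate 1 (-0.61), with adjusted p of 0.0579 to 0.175. It held in the other 2 fits that left out a library. In SiaLo_PD1pos over SiaHi_PD1neg, where 39.4% of tested genes were called in either direction, 20.5% higher and 18.9% lower, and 54.4% did not overlap, St6gal1 fell by 3.00 on the log2 scale (SE 0.26), which is 8.02-fold, with an edgeR adjusted p of 9.29e-07.

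Per T cell transcript the St6gal1 differences between the PD-1 gates were larger. St6gal1 had 1.84, 0.988 and 2.74 counts per 1000 counts of the 10 T cell genes in SiaLo_PD1pos, 9.27, 8.68 and 12.8 in SiaHi_PD1pos, and 61.2, 60.1 and 54.0 in SiaHi_PD1neg. The groups did not overlap on this scale either. When libraries were scaled on those 10 genes in place of TMM, the log2 fold change of St6gal1 was -2.47 (adjusted p = 0.00161) in SiaLo_PD1pos over SiaHi_PD1pos and -2.51 (adjusted p = 6.93e-06) in SiaHi_PD1pos over SiaHi_PD1neg. That scaling moved the median log2 fold change of all tested genes to -0.12 and -1.87 in these comparisons, against -0.01 and 0.02 under TMM. It assumes the same amount of these transcripts per T cell, and that assumption was not tested. Reading the result as a T cell level also assumes that the St6gal1 RNA came from T cells, which was not tested either. In SiaHi_PD1neg the markers of conventional dendritic cells and MHC class II summed to 16889 to 19346 CPM. The 10 T cell genes summed to 1610 to 1753 CPM there. Any St6gal1 RNA from other cells would raise its count per T cell transcript.

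Whether the St6gal1 difference between the sialoglycan gates exceeded that between the PD-1 gates was tested as 1 contrast in the same fit. The first log2 fold change minus the second was -1.75 (SE 0.40, edgeR adjusted p = 0.0101) under TMM, where 17.2% of all tested genes were called and 9.51% were called lower. Under T cell scaling the same contrast was 0.04 (adjusted p = 0.948). The order of the 3 groups was therefore shared by both scalings, but the relation between the 2 steps was not.

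Other cells that may carry St6gal1 RNA, such as B cells, were looked at through their markers. The 15 B and plasma cell markers summed to 131 to 139 CPM in SiaLo_PD1pos, 297 to 406 CPM in SiaHi_PD1pos and 730 to 1206 CPM in SiaHi_PD1neg, an order shared with St6gal1. Blk, Mzb1, Fcer2a and Cr2 were at 0 counts in all 3 SiaLo_PD1pos libraries, and Fcer2a and Cr2 were so in all 3 SiaHi_PD1neg libraries, while each of the 4 had counts in at least 1 SiaHi_PD1pos library. Ighm, the immunoglobulin heavy chain constant gene that led this list, averaged 103.6 CPM in SiaLo_PD1pos, 255.3 CPM in SiaHi_PD1pos and 714.2 CPM in SiaHi_PD1neg. In SiaLo_PD1pos over SiaHi_PD1pos, 4 of the 10 tested B and plasma cell markers were called lower and 0 higher by edgeR. Of all tested genes, 1.13% were called lower and 0.268% higher there, the background for this and the following marker lists. Jchain, which joins immunoglobulin chains in plasma cells, was 9.14-fold lower, at 1.69 ± 1.54 CPM in SiaLo_PD1pos and 15.1 ± 4.15 CPM in SiaHi_PD1pos (adjusted p = 0.0245).

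Markers of CD4 T cells and dendritic cells were also lower in SiaLo_PD1pos than in SiaHi_PD1pos, some by as much as or more than St6gal1. Cd4, the coreceptor of helper T cells, averaged 4.18 ± 1.86 CPM in SiaLo_PD1pos, 32.9 ± 7.18 CPM in SiaHi_PD1pos and 320.3 ± 80.5 CPM in SiaHi_PD1neg, and was 7.74-fold lower in SiaLo_PD1pos over SiaHi_PD1pos (edgeR adjusted p = 1.10e-04). Foxp3, the transcription factor of regulatory T cells, averaged 2.004 ± 0.556 CPM in SiaLo_PD1pos, 20.1 ± 3.05 CPM in SiaHi_PD1pos and 8.79 ± 2.56 CPM in SiaHi_PD1neg, and was 10.1-fold lower in the same comparison (edgeR adjusted p = 2.30e-04). Of the 8 markers of these cells, 4 were called lower and 0 higher there, among them Il2ra and Tnfrsf4. In SiaHi_PD1pos over SiaHi_PD1neg, 4 of the 8 were called higher, Foxp3, Il2ra, Ctla4 and Tnfrsf4, and 1 lower, Cd4. Of all tested genes, 21% were called higher and 19.2% lower in that comparison. The high Cd4 level in SiaHi_PD1neg was thus not shared by those 4 markers, and the cells it came from were not tested. The summed level of the 8 markers, 992 to 1034 CPM in SiaLo_PD1pos, 1235 to 1360 CPM in SiaHi_PD1pos and 608 to 770 CPM in SiaHi_PD1neg, was mostly Ctla4 in the PD-1-positive groups, an inhibitory receptor that exhausted CD8 T cells also express.

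Of 12 plasmacytoid dendritic cell markers, 5 were called lower and 0 higher in SiaLo_PD1pos over SiaHi_PD1pos, beside 1.13% and 0.268% of all tested genes. Siglech, a receptor of these cells, averaged 2.62 CPM in SiaLo_PD1pos, 15.02 CPM in SiaHi_PD1pos and 888.5 CPM in SiaHi_PD1neg, and was 5.63-fold lower in SiaLo_PD1pos over SiaHi_PD1pos. In the same comparison Klk1 was 6.03-fold, Ccr9 5.25-fold and Ly6d 8.66-fold lower, against 5.19-fold for St6gal1. Among the 7 markers that did not pass were Bst2 (log2 fold change -0.11), Tcf4 (-0.10) and Runx2 (0.32). The list's summed level, 765 to 817 CPM in SiaLo_PD1pos, 816 to 963 CPM in SiaHi_PD1pos and 4908 to 8583 CPM in SiaHi_PD1neg, was led by Irf8, which averaged 376 CPM in SiaLo_PD1pos and 400.03 CPM in SiaHi_PD1pos. Of the 13 conventional dendritic cell and MHC class II markers, 9 were called lower and 0 higher, with Clec9a 3.91-fold and Cd74 2.01-fold lower. The 10 melanoma markers summed to 1846 to 3707 CPM in SiaLo_PD1pos, 949 to 1093 CPM in SiaHi_PD1pos and 4395 to 9209 CPM in SiaHi_PD1neg. Of the tested macrophage and monocyte (12), fibroblast and endothelial (8) and neutrophil (2) markers, 0 were called in SiaLo_PD1pos over SiaHi_PD1pos. Of 8 natural killer cell markers, 1 was called higher and 0 lower there, and of the 10 melanoma markers 4 were called higher and 0 lower. Some markers of B cells, CD4 T cells and dendritic cells thus moved with St6gal1 between the sialoglycan gates, while melanoma markers went the other way. The part of these cells in St6gal1 levels was not tested.

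**Figure D2:**
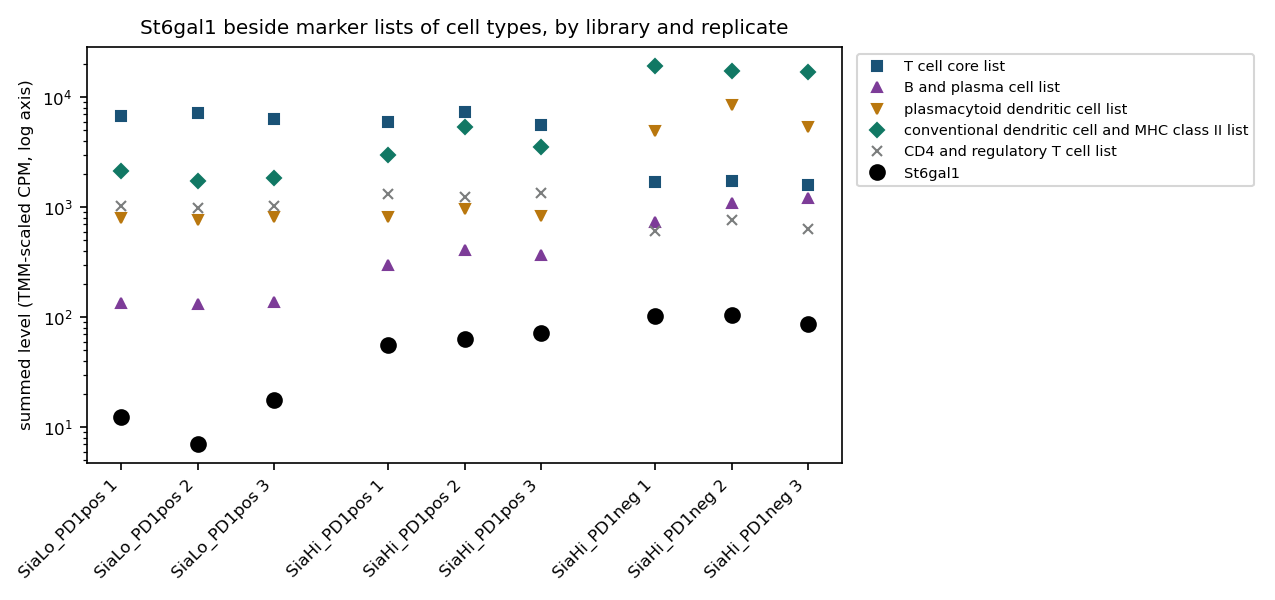
Level of St6gal1 and summed levels of marker lists in TMM-scaled CPM (y axis, log scale) in each library (x axis, group and replicate), where each point is 1 library. St6gal1 and the B and plasma cell list are lowest in SiaLo_PD1pos, and the T cell core list is lowest in SiaHi_PD1neg at 1610 to 1753 CPM.

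St6galnac4, the neighbour on chromosome 2 that acts on already sialylated acceptors, had 50.7, 50.2 and 48.8 CPM in SiaLo_PD1pos, 60.3, 58.1 and 44.5 CPM in SiaHi_PD1pos, and 32.4, 40.3 and 34.9 CPM in SiaHi_PD1neg. The PD-1-positive groups overlapped, and both lay above every SiaHi_PD1neg library. In SiaLo_PD1pos over SiaHi_PD1pos its log2 fold change was -0.12 (SE 0.16, edgeR adjusted p = 1.00). In SiaHi_PD1pos over SiaHi_PD1neg it rose by 0.60 on the log2 scale (SE 0.16), which is 1.51-fold, with an edgeR adjusted p of 0.00962. The call held in 9 of 9 fits that left out a library, with adjusted p up to 0.0499.

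In SiaLo_PD1pos over SiaHi_PD1neg, St6galnac4 rose by 0.48 on the log2 scale (SE 0.16, edgeR adjusted p = 0.0320). That call was lost without SiaLo_PD1pos replicate 1, 2 or 3 (0.48, 0.51 and 0.54) and without SiaHi_PD1neg replicate 1 or 3 (0.44 and 0.49), with adjusted p of 0.0517 to 0.0915. Under T cell scaling both directions turned, to -1.30 (adjusted p = 1.51e-05) in SiaHi_PD1pos over SiaHi_PD1neg and -1.53 (adjusted p = 3.75e-06) in SiaLo_PD1pos over SiaHi_PD1neg. Each lay above the median of all tested genes under that scaling, which was -1.87 for the first and -1.99 for the second. Per 1000 counts of the T cell genes, St6galnac4 had 7.004 to 7.66 counts in SiaLo_PD1pos, 7.89 to 10.03 in SiaHi_PD1pos and 19.2 to 22.97 in SiaHi_PD1neg.

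St6galnac6, the ganglioside enzyme encoded next to St6galnac4, had 18.2, 12.6 and 18.9 CPM in SiaLo_PD1pos, 18.1, 17.4 and 15.97 CPM in SiaHi_PD1pos, and 23.8, 13.9 and 14.9 CPM in SiaHi_PD1neg. All 3 groups overlapped, with means of 16.6 ± 3.45, 17.2 ± 1.09 and 17.6 ± 5.45 CPM in that order of groups (SD, n = 3 each). Its log2 fold changes were -0.05 in SiaLo_PD1pos over SiaHi_PD1pos, -0.04 in SiaHi_PD1pos over SiaHi_PD1neg and -0.08 in SiaLo_PD1pos over SiaHi_PD1neg (SE 0.26 each), and none passed the edgeR test (adjusted p = 1.00, 0.928 and 0.832). With a standard error of 0.26, differences well above that size could have been missed. In SiaLo_PD1pos over SiaHi_PD1pos, Cmah, a gene of the sialic acid pathway, did not pass at -1.21 (SE 0.28, edgeR adjusted p = 0.0545). Under T cell scaling St6galnac6 was at -1.93 (adjusted p = 5.51e-05) in SiaHi_PD1pos over SiaHi_PD1neg. In SiaLo_PD1pos over SiaHi_PD1neg it was at -2.08 (adjusted p = 2.88e-05). Both were close to the medians of all genes on that scale.

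St6galnac3, which acts on sialylated O-glycans and glycolipids, had 14.5, 15.4 and 10.6 CPM in SiaLo_PD1pos, 12.1, 10.4 and 12.5 CPM in SiaHi_PD1pos, and 5.68, 0 and 1.28 CPM in SiaHi_PD1neg. The PD-1-positive groups overlapped, and both lay above every SiaHi_PD1neg library. The SiaHi_PD1neg libraries held 78, 0 and 13 counts of it, so its level there differed widely between libraries. In SiaLo_PD1pos over SiaHi_PD1pos the log2 fold change of St6galnac3 was 0.21 (SE 0.72, edgeR adjusted p = 1.00).

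In SiaHi_PD1pos over SiaHi_PD1neg, St6galnac3 rose by 2.31 on the log2 scale (SE 0.79), which is 4.94-fold, with an edgeR adjusted p of 0.0316. In SiaLo_PD1pos over SiaHi_PD1neg it rose by 2.52 (SE 0.79), which is 5.72-fold, with an edgeR adjusted p of 0.0218. The first call was lost without SiaHi_PD1pos replicate 1 or 3 (2.30 and 2.27) or SiaHi_PD1neg replicate 3 (2.06), and the second without SiaLo_PD1pos replicate 1 or 2 (2.48 and 2.46) or SiaHi_PD1neg replicate 3 (2.28). Without SiaHi_PD1neg replicate 1 the log2 fold changes were 4.32 and 4.54, and without SiaHi_PD1neg replicate 2 they were 1.74 and 1.96. Both calls were also lost with DESeq2 (2.29 and 2.49, adjusted p = 0.117 and 0.0865) and when the 6 libraries compared were fitted alone (adjusted p = 0.0761 and 0.0647).

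Per T cell transcript, the groups were not separated in St6galnac3. It had 2.14, 2.15 and 1.66 counts per 1000 counts of the T cell genes in SiaLo_PD1pos, 2.00, 1.42 and 2.22 in SiaHi_PD1pos, and 3.37, 0 and 0.793 in SiaHi_PD1neg, and all groups overlapped. Under T cell scaling its log2 fold changes over SiaHi_PD1neg were 0.43 (adjusted p = 0.657) for SiaHi_PD1pos and 0.50 (adjusted p = 0.598) for SiaLo_PD1pos.

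St6galnac2, the O-glycan enzyme, was close to the detection limit. It had 0.469, 0.289 and 0.346 CPM in SiaLo_PD1pos, 0.150, 1.02 and 1.18 CPM in SiaHi_PD1pos, and 0.874, 2.54 and 0 CPM in SiaHi_PD1neg. These values come from at most 34 counts in a library, while Snhg16, which overlaps it on the other strand, reached 259 counts, so the St6galnac2 level is uncertain. Its log2 fold changes were -1.07 (SE 1.35) in SiaLo_PD1pos over SiaHi_PD1pos, -0.54 (SE 1.30) in SiaHi_PD1pos over SiaHi_PD1neg and -1.61 (SE 1.35) in SiaLo_PD1pos over SiaHi_PD1neg. None passed the edgeR test (adjusted p = 1.00, 0.778 and 0.379), and differences of that size were not detectable at this depth. Under T cell scaling St6galnac2 was at -2.39 in SiaHi_PD1pos over SiaHi_PD1neg (edgeR adjusted p = 0.113). In SiaLo_PD1pos over SiaHi_PD1neg it was at -3.55 (edgeR adjusted p = 0.0331). The medians of all tested genes on that scale were -1.87 and -1.99.

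All 5 genes passed the filter on low counts. The table listed 3 further mouse genes of the family, and none of them passed it. St6gal2 and St6galnac1 had 0 counts in all 9 libraries, and St6galnac5 had 1 count in SiaLo_PD1pos replicate 1 and 0 in the other libraries. A count of 0 allows up to 3 counts, which is 0.201 to 0.295 CPM depending on the library, and covers counting error only.

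**Figure D3:**
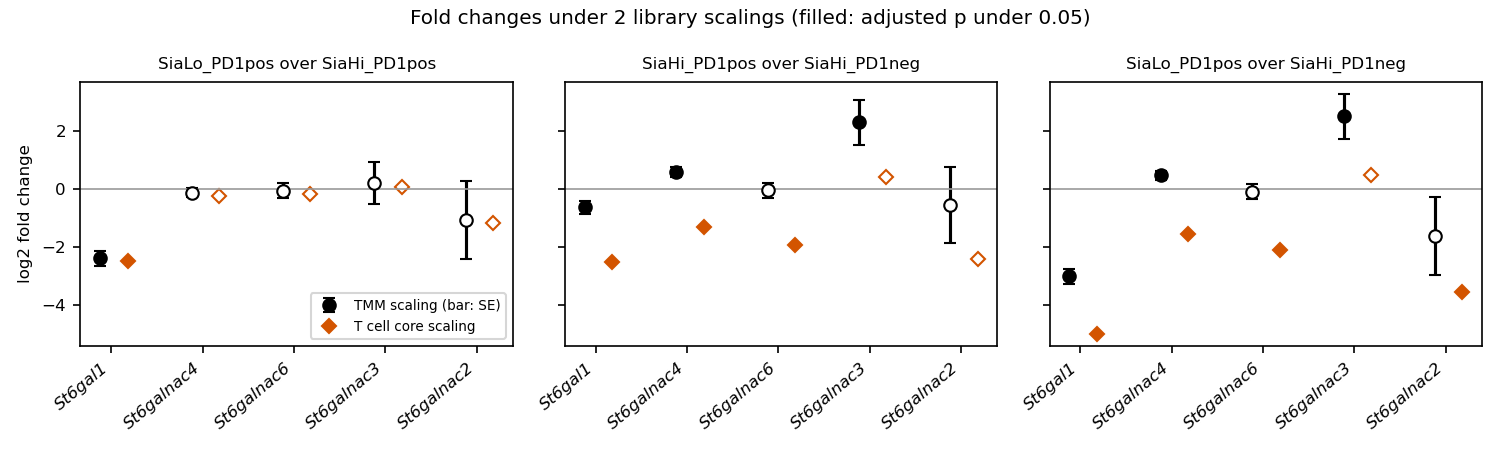
Log2 fold change of each gene (y axis) in the 3 comparisons (panels) under TMM scaling (circles, bars are the SE) and under T cell core scaling (diamonds), with filled symbols for an adjusted p under 0.05. St6gal1 is below 0 in every panel under both scalings, and St6galnac4 is at 0.60 and 0.48 under TMM but at -1.30 and -1.53 under T cell scaling in the comparisons with SiaHi_PD1neg.

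Levels of different genes were compared per kilobase of summed exon length, which merges isoforms and therefore depends on the annotation. In SiaLo_PD1pos the order was St6galnac4 (7.70 ± 0.153 CPM per kb), St6galnac6 (3.45 ± 0.718), St6gal1 (2.51 ± 1.06), St6galnac3 (1.498 ± 0.286) and St6galnac2 (0.0519 ± 0.0130; SD, n = 3 each). The ranges of St6galnac6 and St6gal1 overlapped, as did those of St6gal1 and St6galnac3. In SiaHi_PD1pos St6gal1 came first with 13.0 ± 1.67 CPM per kb, followed by St6galnac4 with 8.38 ± 1.32, St6galnac6 with 3.56 ± 0.226, St6galnac3 with 1.30 ± 0.124 and St6galnac2 with 0.111 ± 0.0783, and no neighbours overlapped. In SiaHi_PD1neg St6gal1 led with 20.1 ± 2.05 CPM per kb, St6galnac4 followed with 5.53 ± 0.619 and St6galnac6 with 3.65 ± 1.13. St6galnac3 with 0.258 ± 0.332 and St6galnac2 with 0.160 ± 0.182 overlapped there.

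As a share of the summed level of the 5 genes per kb, St6gal1 made up 16.03%, 10.6% and 21.9% in the SiaLo_PD1pos libraries, 44.0%, 48.2% and 55.5% in the SiaHi_PD1pos libraries, and 66.3%, 69.4% and 67.2% in the SiaHi_PD1neg libraries. St6galnac4 made up 46.4 to 57.1% in SiaLo_PD1pos, 26.0 to 36.1% in SiaHi_PD1pos and 15.8 to 20.4% in SiaHi_PD1neg. The leading gene was thus St6galnac4 in all 3 SiaLo_PD1pos libraries and St6gal1 in the 6 sialoglycan-high libraries. St6galnac6 made up 19.4 to 24.2% in SiaLo_PD1pos, 12.6 to 14.6% in SiaHi_PD1pos and 9.38 to 15.6% in SiaHi_PD1neg. St6galnac3 made up 7.23 to 12.6% in SiaLo_PD1pos, 4.31 to 5.26% in SiaHi_PD1pos and 0 to 1.99% in SiaHi_PD1neg.

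The summed level of the 5 genes was 13.6 to 16.2 CPM per kb in SiaLo_PD1pos, 25.8 to 26.8 in SiaHi_PD1pos and 26.3 to 31.7 in SiaHi_PD1neg. Without St6gal1, the sum of the other 4 averaged 12.7 ± 0.584 CPM per kb in SiaLo_PD1pos, 13.4 ± 1.42 in SiaHi_PD1pos and 9.60 ± 1.05 in SiaHi_PD1neg (SD, n = 3 each). The lower sum in the sialoglycan-low cells was therefore made up almost entirely by St6gal1.

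**Figure D4:**
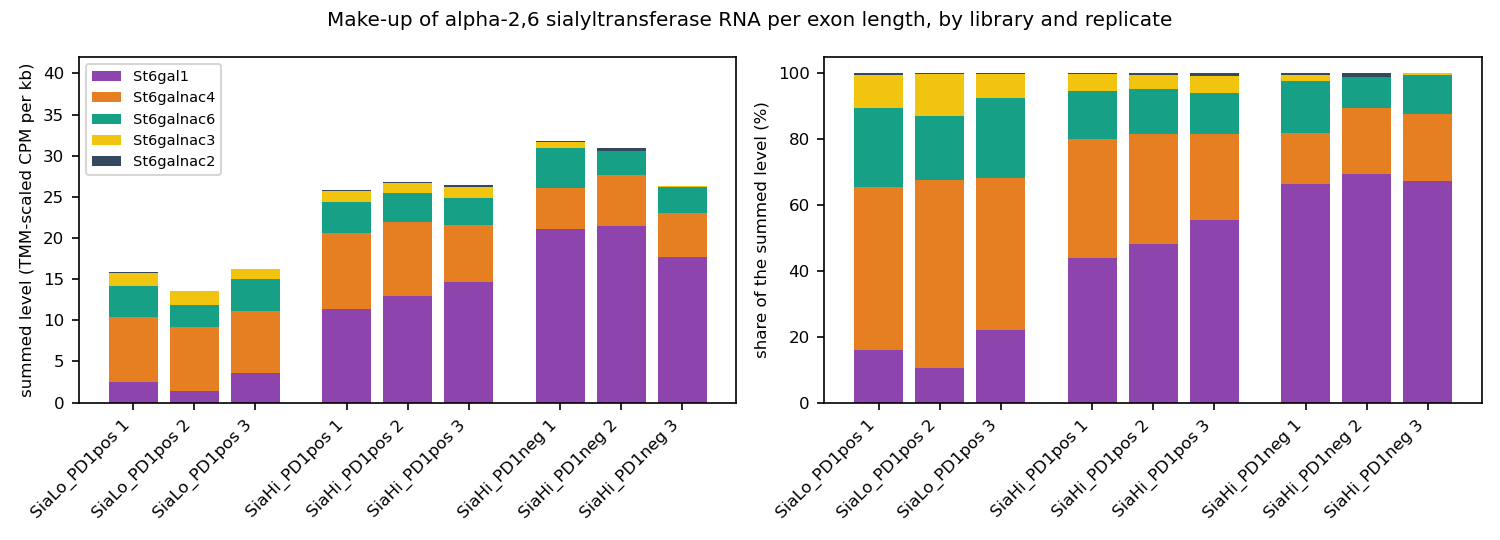
Summed level of the 5 genes in TMM-scaled CPM per kb (left y axis) and the share of each in that sum in percent (right y axis), for each library (x axis, group and replicate). St6gal1 makes up 10.6 to 21.9% in SiaLo_PD1pos, 44.0 to 55.5% in SiaHi_PD1pos and 66.3 to 69.4% in SiaHi_PD1neg.

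A ratio within a library does not depend on library scaling. The log2 ratio of St6gal1 to the other 4 genes per kb averaged -2.43 ± 0.62 in SiaLo_PD1pos, -0.04 ± 0.34 in SiaHi_PD1pos and 1.06 ± 0.10 in SiaHi_PD1neg (SD, n = 3 each), and no groups overlapped. The difference was -2.39 (5.24-fold) in SiaLo_PD1pos over SiaHi_PD1pos, -1.11 (2.15-fold) in SiaHi_PD1pos over SiaHi_PD1neg and -3.50 (11.3-fold) in SiaLo_PD1pos over SiaHi_PD1neg. Each gave p = 0.1 in a two-sided exact permutation test, the smallest that 3 libraries against 3 allow, so this design cannot pass 0.05. These 3 comparisons share libraries and are not independent.

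Further ratios were chosen after the values had been seen. The log2 ratio of St6gal1 to St6galnac4 alone differed by -2.35, -1.22 and -3.57 in the same order of comparisons, each with p = 0.1 in the exact permutation test. The α2,3-sialyltransferases St3gal3, St3gal4 and St3gal6, which sialylate the same kind of galactose-ended acceptors as St6gal1, summed to 33.1 to 35.6 CPM per kb in SiaLo_PD1pos, 30.3 to 34.0 in SiaHi_PD1pos and 36.4 to 45.1 in SiaHi_PD1neg. The ratio of St6gal1 to that sum was 0.0713, 0.0435 and 0.102 in SiaLo_PD1pos, 0.349, 0.380 and 0.484 in SiaHi_PD1pos, and 0.467, 0.589 and 0.451 in SiaHi_PD1neg. SiaLo_PD1pos lay below both other groups, while SiaHi_PD1pos and SiaHi_PD1neg overlapped. Its log2 value differed by -2.56 in SiaLo_PD1pos over SiaHi_PD1pos (exact permutation p = 0.1), -0.32 in SiaHi_PD1pos over SiaHi_PD1neg (p = 0.3) and -2.87 in SiaLo_PD1pos over SiaHi_PD1neg (p = 0.1).

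The rest of the sialylation pathway was described by lists of genes. They held genes for sialic acid supply, N-glycans, O-glycans, ganglioside acceptors, other sialyltransferases, sialidases and proteases that can cut Golgi glycosyltransferases. Of 50 tested genes in these lists, 0 were called higher and 1 lower in SiaLo_PD1pos over SiaHi_PD1pos by edgeR (2 higher and 4 lower at an unadjusted p under 0.05; 0 and 3 by DESeq2, 3 and 6 by limma-voom), with a median log2 fold change of 0.02 against -0.01 over all tested genes. As background, edgeR put 0.268% of all tested genes higher and 1.13% lower in this comparison. The corresponding totals over all genes, higher first, were 126 and 340 under DESeq2. Under limma-voom they were 529 and 733. Whether the lists differed from these backgrounds was not tested. The 1 edgeR call in the lists was St8sia1, the α2,8-sialyltransferase that makes ganglioside GD3. It averaged 0.426 ± 0.155 CPM in SiaLo_PD1pos and 4.67 ± 0.715 CPM in SiaHi_PD1pos (SD, n = 3 each), a log2 fold change of -3.43 (edgeR adjusted p = 0.00106). Cmah, which turns CMP-Neu5Ac into CMP-Neu5Gc and so changes the sialic acid that St6gal1 transfers, averaged 23.8 ± 3.17 CPM in SiaLo_PD1pos and 54.9 ± 16.6 CPM in SiaHi_PD1pos. Its log2 fold change was -1.21 with an edgeR adjusted p of 0.0545, which did not pass, while DESeq2 (-1.21, adjusted p = 0.00142) and limma-voom (-1.34, adjusted p = 1.44e-04) called it.

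In SiaHi_PD1pos over SiaHi_PD1neg, 11 of the 50 were called higher and 19 lower, and in SiaLo_PD1pos over SiaHi_PD1neg 12 were called higher and 15 lower. These shares stand beside 40.2% and 39.4% called over all tested genes. Under T cell scaling 1 was called higher and 44 lower in the first, and 1 higher and 46 lower in the second. That scaling called 12315 of all 15292 tested genes lower in the first comparison. It moved the median log2 fold change of all tested genes to -1.87 in the first and -1.99 in the second. Most tested genes of each pathway list were likewise called lower under it. The T cell scaling counts of single lists below stand beside that background. In the supply of CMP-sialic acid, Nans, the sialic acid synthase, rose by 0.95 on the log2 scale in SiaHi_PD1pos over SiaHi_PD1neg, while Gne, which starts the pathway, fell by 1.43 and Cmah fell by 1.64. The other 2 of 5 tested did not pass. With T cell scaling Nans was -0.96 and all 5 were called lower.

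Among 14 N-glycan enzymes, 1 was called higher and 7 lower in SiaHi_PD1pos over SiaHi_PD1neg, among those lower Mgat1, which starts complex N-glycans (-1.16), Man2a2, a Golgi mannosidase (-1.60), and Mgat4a, which adds a branch (-1.13). B4galt1, which adds the galactose that St6gal1 caps, averaged 190 ± 20.9 CPM in SiaLo_PD1pos, 156 ± 24.3 CPM in SiaHi_PD1pos and 116 ± 29.0 CPM in SiaHi_PD1neg, and passed only in SiaLo_PD1pos over SiaHi_PD1neg (log2 fold change 0.71, but -1.29 with T cell scaling). Of the N-glycan calls, 0 of 1 higher and 5 of 7 lower held in every fit that left out a library, and with T cell scaling 0 were called higher and 12 lower. Among 13 O-glycan enzymes, 6 were called higher and 2 lower, with Galnt3, which starts O-glycans, at 3.63 and Gcnt1, which makes the core that carries further chains, at 1.49. Of these calls, 3 of 6 higher and 1 of 2 lower held in every fit that left out a library. With T cell scaling the balance turned, with 1 called higher (Galnt3, 1.78) and 10 lower, and Gcnt1 was -0.40.

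Among the α2,3-sialyltransferases, 0 of 6 were called higher and 4 lower in SiaHi_PD1pos over SiaHi_PD1neg, including St3gal5, the GM3 synthase (-2.55), and St3gal1, which caps O-glycans (-0.56). St3gal5 alone of the 4 held in every fit that left out a library. St3gal1 was lost without SiaHi_PD1neg replicate 2 (-0.42), and St3gal6 held in 3 and St3gal3 in 1 of the 9 fits. With T cell scaling all 6 were called lower. All 3 tested α2,8-sialyltransferases were called lower, including St8sia4, a polysialyltransferase, at 110 ± 10.9 CPM in SiaHi_PD1pos and 374 ± 75.6 CPM in SiaHi_PD1neg, but St8sia6 held in 1 of the 9 fits that left out a library. Of 5 genes that build ganglioside acceptors, B4galnt1 (1.21), B4galt5 (1.54) and Ugcg (0.94) were called higher and B4galt6 (-1.96) lower. The first 3 were -0.67, -0.33 and -0.94 with T cell scaling. Of 2 tested sialidases, which remove sialic acid, and of Bace1 and Sppl3, proteases that can cut Golgi glycosyltransferases, 0 were called in any of the 3 comparisons by edgeR. At an unadjusted p under 0.05, 1 sialidase was higher in SiaHi_PD1pos over SiaHi_PD1neg and 1 was lower in SiaLo_PD1pos over SiaHi_PD1neg, and DESeq2 called both of these and limma-voom the first. All 4 of these genes were called lower in both comparisons with SiaHi_PD1neg under T cell scaling.

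Of 7 tested sialic acid receptors of the Siglec family, 0 were called higher and 1 lower in SiaLo_PD1pos over SiaHi_PD1pos, which was Siglech. In each comparison with SiaHi_PD1neg 0 were called higher and 4 lower (0 and 6 with T cell scaling). Of the 4, 3 held in every fit that left out a library. Siglece held in 2 of the 9 fits in SiaHi_PD1pos over SiaHi_PD1neg, and Siglec1 in 3 of the 9 in SiaLo_PD1pos over SiaHi_PD1neg. Cd22, the B cell receptor for α2,6-sialic acid, averaged 3.18 CPM in SiaLo_PD1pos, 5.22 CPM in SiaHi_PD1pos and 5.61 CPM in SiaHi_PD1neg, and did not pass in any comparison (edgeR adjusted p = 0.906, 0.896 and 0.257).

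The genes whose pattern over the 9 libraries was closest to St6gal1 were Nsg2, Trat1, Mgl2, Tdrp, Cd83 and Klrb1b, with root mean square differences of 0.328, 0.373, 0.386, 0.387, 0.406 and 0.432 in centred log2 CPM among 10315 candidates. Nsg2 averaged 4.02 ± 0.992 CPM in SiaLo_PD1pos, 31.5 ± 0.700 CPM in SiaHi_PD1pos and 52.9 ± 1.49 CPM in SiaHi_PD1neg. Trat1, an adaptor of the T cell receptor, averaged 2.46 ± 0.573, 13.9 ± 3.74 and 22.2 ± 5.38 CPM in that order of groups. Mgl2, a C-type lectin known from dendritic cells and macrophages, averaged 1.48 ± 0.189, 11.6 ± 3.91 and 14.8 ± 3.95 CPM. Cd83, a surface protein of activated antigen-presenting cells that lymphocytes also express, averaged 72.3 ± 7.33, 252.9 ± 23.8 and 530.3 ± 79.5 CPM (SD, n = 3 each). The list thus held T cell genes and genes of antigen-presenting cells side by side.

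**Figure D5:**
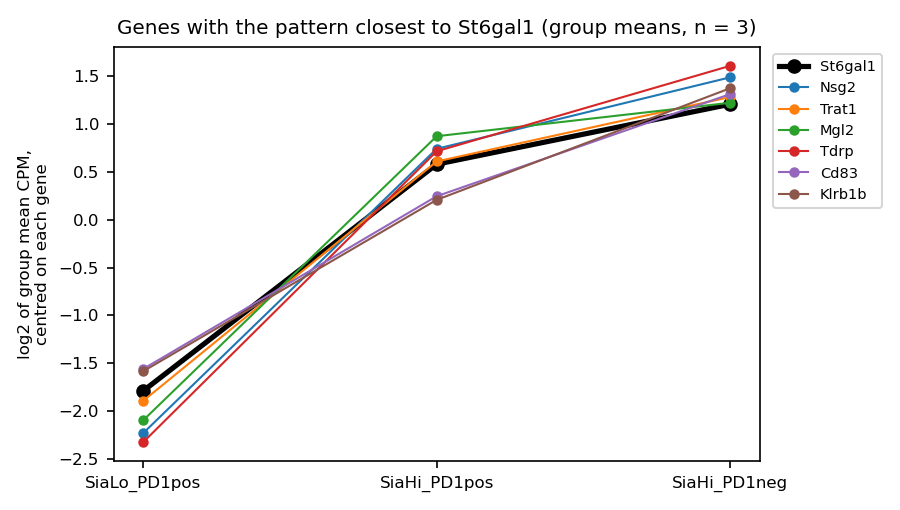
Log2 of the group mean CPM, centred on each gene's mean over the groups (y axis), in the 3 sorted groups (x axis) for St6gal1 (thick line) and the 6 genes closest to it, where lines join the group means of 3 libraries of 1 gene. All 7 genes are lowest in SiaLo_PD1pos, which for the 6 follows from their choice by closeness to St6gal1 in these same libraries. Nsg2 is at 4.02 CPM there against 31.5 CPM in SiaHi_PD1pos.

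The closest genes to St6galnac3 were Tmem171, AI847159 and Gas2, with differences of 0.432, 0.602 and 0.619. Gas2 averaged 19.7 ± 2.21 CPM in SiaLo_PD1pos, 19.3 ± 1.39 CPM in SiaHi_PD1pos and 1.24 ± 1.15 CPM in SiaHi_PD1neg. The closest to St6galnac4 were Tmem109 (0.0742), Naa50 (0.0745) and Gsk3a (0.0894), and to St6galnac6 Tlcd2 (0.105), Trmt61a (0.109) and Pink1 (0.123). St6galnac2 had no gene closer than 0.481 (Gprc5a). Small differences are easily reached by genes that vary little, as St6galnac4 and St6galnac6 did, so these values are not comparable between the genes.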

How the data were processed

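The authors deposited 1 table of counts, whole reads assigned to genes, for all 9 libraries, made with Trim Galore 0.6.5, STAR 2.7.6a, GRCm38 and featureCounts 1.6.3 per the submitters' processing notes. Table coordinates differ from GRCm38 annotation and are given as the file's own. The annotation release, strand setting and treatment of multiply mapping reads are not stated there. RNA was extracted with TRIzol and poly-T selected, with no molecular identifiers described in the labels' protocols.

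Groups were taken from the sample titles. All 9 libraries entered 1 edgeR quasi-likelihood fit (edgeR 4.0.16, limma 3.58.1, R 4.3.3) with filterByExpr (15292 of 56860 genes), TMM factors of 0.928 to 1.05 and robust dispersions. The standard error is the log2 fold change divided by the square root of F. A gene was called when its p, adjusted by Benjamini and Hochberg's method across the tested genes, was under 0.05. Correlations of log CPM within groups were 0.900 to 0.985, and the biological coefficient of variation was 0.313. Named genes were the 5 members, other family genes, up to 4 called genes of a pathway list, each marker list's most abundant gene, and the genes nearest to each member among tested genes with a mean of at least 5 CPM, excluding unnamed gene models and receptor segments. B4galt1, Cd22, Cmah in the sialoglycan comparison, and cell type markers other than each list's leading gene were named after values were seen. Members and lists were chosen with earlier results of these data known. The alternatives tried were other scalings, filters and tools (DESeq2 1.42.0, limma-voom), a replicate block and each library left out. Some genes of the marker lists are not reported here. The procedure was tested on simulated data.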

Additional observations from a re-analysis of the deposited data

How the results depend on the processing

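St6gal1 in SiaLo_PD1pos over SiaHi_PD1pos kept its direction and call in 9 of 9 other settings (-2.47 to -2.24) and without each library, as it did in SiaLo_PD1pos over SiaHi_PD1neg (-4.99 to -2.94; leave-one-out -3.28 to -2.68). In SiaHi_PD1pos over SiaHi_PD1neg its call was lost without composition scaling (-0.65, adjusted p = 0.0508), and leave-one-out values were -0.71 to -0.52. The contrast of the 2 steps was 0.0402 under T cell core scaling and -2.10 to -1.49 leaving out a library. Genes called higher in SiaLo_PD1pos over SiaHi_PD1pos, 41 in the reported fit, were 11 with T cell core scaling, 187 with no low-count filter, 126 with DESeq2, 529 with limma-voom, 65 with the replicate block, 71 with only the 6 libraries and 14 to 66 leaving out a library. Genes called lower, 173 in the reported fit, were 348 with no filter, 340 with DESeq2, 733 with limma-voom and 81 to 166 leaving out a library. Under T cell core scaling, 284 genes were called higher and 12315 lower in SiaHi_PD1pos over SiaHi_PD1neg (3218 and 2937 reported), and 281 and 12531 in SiaLo_PD1pos over SiaHi_PD1neg (3136 and 2893 reported); the scaling adds a shift to every gene. It turned St6galnac4 to -1.30 and -1.53 in these comparisons, Nans to -0.96 and -1.05, Gcnt1 to -0.40 and -0.46, Galnt6 to -0.50 and -0.56, B4galt5 to -0.33 and -0.41, B4galnt1 to -0.67 and -0.78, and Ugcg to -0.94 and -0.71. The low and flat members did not keep their sign in every comparison. St6galnac2 was 0.73 in SiaLo_PD1pos over SiaHi_PD1pos with limma-voom and -1.09 to 0.82 in SiaHi_PD1pos over SiaHi_PD1neg leaving out a library. In SiaLo_PD1pos over SiaHi_PD1neg it stayed below 0, at -3.55 to -0.07 in other settings and -2.15 to -0.24 leaving out a library. St6galnac6 was 0.0442 with limma-voom and 0.00208 with the replicate block in SiaHi_PD1pos over SiaHi_PD1neg. Its leave-one-out ranges were -0.14 to 0.12, -0.15 to 0.27 and -0.19 to 0.23 in the 3 comparisons in the order reported. St6galnac4 in SiaLo_PD1pos over SiaHi_PD1neg lost its call with a minimum of 5 CPM in 3 libraries (0.38, adjusted p = 0.0690). St6galnac3 was 4.05 and 4.22 with limma-voom. The causes were not tested. Of 970 alternatives for 54 results on other pathway genes, 902 kept direction and call, 56 lost the call and 12 turned, all with T cell core scaling. Libraries with the same replicate number had deviations correlated at -0.0110 to 0.118, which does not establish a pairing; each SiaLo_PD1pos library and each SiaHi_PD1pos library correlated best with its own number in the other of these groups, a hint from the data and not the design. With the replicate block St6gal1 gave -2.40, -0.65 and -3.05 and kept its calls. Left-out-library ranges of the within-library log2 ratio were -2.69 to -2.07, -1.29 to -0.95 and -3.79 to -3.18. Depth limits St6galnac2 most, at 0 to 34 counts per library.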
